A study of Mus musculus with 8 samples.

Results

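The 33 genes described here encode enzymes of cholesterol and fatty acid synthesis and the proteins that set their expression and move sterols. They were taken by name from the deposited count table of mouse tail epidermis: 7 genes of the mevalonate pathway, 11 of the steps from squalene to cholesterol, 5 of SREBP control, the sterol carrier Stard4, 5 of the LXR branch and 4 of fatty acid synthesis. All 33 were found among the 46983 identifiers of the table, and all 33 were among the 15638 genes with enough counts to be tested. The rule is a list of names and uses no measured value, but the list was drawn up with earlier results of these data known.

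One RNA library was made from each of 8 mice, all 8 weeks old, and came from tail epidermis, with 4 mice in each of 2 groups. Mice of the CTR group had the genotype K14-Cre/+ Ppp1r8 fl/+, that is, the Cre transgene with 1 floxed and 1 wild-type allele. Mice of the SKO group (KO in the sample titles) had the genotype K14-Cre/+ Ppp1r8 fl/-, with 1 floxed allele and 1 null allele. Ppp1r8 encodes NIPP1, a nuclear regulator of protein phosphatase 1. Both groups therefore carried Cre and at least 1 floxed allele, and no mouse without Cre was included. The K14 promoter is active in basal keratinocytes, so the transgene does not target immune cells, melanocytes or other cells left in the epidermal sheet. By the genotypes, such cells still differed between the groups, with 1 null allele in SKO and 1 wild-type allele in CTR. The strain label lists the transgene Tg(KRT14-cre)1Amc/J with the alleles Ppp1r8tm1Ave and also Ppp1r8tm1.1Itl. The labels gave neither sex nor litter. Sex was not inferred from the counts, and neither was compared between groups.

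Cholesterol is built from acetyl-CoA through mevalonate, farnesyl diphosphate, squalene and lanosterol. Most genes of the route are transcribed under SREBP2, and those of fatty acid synthesis under SREBP1. SCAP carries both precursors to the Golgi for cleavage when sterols are low, while INSIG proteins hold SCAP in the endoplasmic reticulum when sterols are high, and the nuclear receptors LXR alpha and beta switch on sterol export. In epidermis, cholesterol and fatty acids made by keratinocytes are needed, with ceramides, for the lipid layers of the stratum corneum.

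Libraries held 16696212 to 21571935 counts, and 3 counts, the floor used here, corresponded to 0.141 to 0.186 normalised CPM (CPM, library-scaled counts with TMM factors, the unit of all levels below). Ppp1r8 lay at 34.7 to 41.6 CPM in CTR and 28.4 to 47.4 CPM in SKO (log2 fold change -0.06, SE 0.14, edgeR adjusted p = 0.789). The exons removed by Cre are not given in the sources used here, so the gene-level count does not check the genotype labels. The keratinocyte genes Krt5 and Krt14, at 8793 ± 678 and 4177 ± 474 CPM in CTR (SD, n = 4), marked the tissue as labelled and were not called different. Of other keratinocyte markers, Krt1 and Krt10, made above the basal layer, were 7.38-fold and 1.99-fold higher in SKO (edgeR adjusted p = 9.43e-05 and 0.000486). Krt15, a keratin of basal cells, was 1.46-fold lower (2683 ± 88.7 to 1844 ± 176 CPM, adjusted p = 0.00293). Summed markers of hair shaft were 3575 to 6613 CPM in CTR and 132 to 1547 in SKO. All 9 tested were lower without overlap and 8 were called, against 12.2% of all genes called lower, but the robust fit called 4. Summed sebaceous gland markers were 2855 to 3717 CPM in CTR and 4225 to 5603 in SKO. Immune markers summed to 58.6 to 88.9 against 104.6 to 141.3 CPM. Of 6 tested immune markers, 3 were called, all higher, against 11.5% of all genes called higher. Melanocyte markers summed to 179.9 to 263.8 against 243.9 to 400.5 CPM, which overlapped. Of these, Dct, Pmel and Mlana rose and Mitf was 1.45-fold lower (adjusted p = 0.0101). Adipocyte sums were 14.8 to 25.2 against 4.46 to 10.2 CPM, with Adipoq at 0 in 7 of 8 libraries. The lower sum was that of Fabp4 (19.3 ± 4.96 and 2.86 ± 2.14 CPM, adjusted p = 0.00225), while Cidec rose from 1.11 ± 0.629 to 2.78 ± 0.489 CPM (adjusted p = 0.0200, not called without CTR 1 or CTR 3) and Plin1, too low to be tested, was at 0.0759 ± 0.0228 and 0.476 ± 0.0726 CPM. Sums also overlapped between the groups for fibroblast (33.8 to 52.7 and 17.5 to 56.1 CPM), endothelial (2.26 to 6.64 and 1.82 to 2.91 CPM) and skeletal muscle markers (0.0962 to 0.615 and 0.1002 to 0.741 CPM). In bulk tissue, fewer cells of a type and less RNA per cell cannot be told apart.

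Each printed promoter carries letters of the motif search below, and each belongs to a gene called different in SKO. Hmgcs1 was the called gene with a sterol regulatory element core. Msmo1, an enzyme gene that rose, and Insig1, the regulator that fell, were chosen after their values were seen. The sequences are the last 220 bases before the RefSeq start, 5′ to 3′ on the strand of the gene (RefSeq, GRCm38.p6), at chr13:119690131-119690350 (plus strand) for Hmgcs1, chr8:64733579-64733798 (minus strand) for Msmo1 and chr5:28071192-28071411 (plus strand) for Insig1. Capitals mark TCACNCCAC, CCAAT or CACGTG on either strand, so that ATTGG is a CCAAT read on the other strand.
Hmgcs1: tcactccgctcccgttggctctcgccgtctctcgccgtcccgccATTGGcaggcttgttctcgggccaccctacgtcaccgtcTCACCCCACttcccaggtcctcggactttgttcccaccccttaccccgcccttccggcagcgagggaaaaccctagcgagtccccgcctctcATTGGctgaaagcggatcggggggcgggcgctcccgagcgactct
Msmo1: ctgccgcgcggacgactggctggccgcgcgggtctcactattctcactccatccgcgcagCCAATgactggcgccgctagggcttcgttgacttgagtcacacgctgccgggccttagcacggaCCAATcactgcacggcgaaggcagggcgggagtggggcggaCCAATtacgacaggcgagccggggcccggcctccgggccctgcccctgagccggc
Insig1: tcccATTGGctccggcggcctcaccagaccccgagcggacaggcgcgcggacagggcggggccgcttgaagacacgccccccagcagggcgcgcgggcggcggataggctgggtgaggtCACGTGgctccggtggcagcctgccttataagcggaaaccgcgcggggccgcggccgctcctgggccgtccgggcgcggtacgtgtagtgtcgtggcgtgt
The Hmgcs1 window holds the sterol regulatory element core 137 to 129 bases before the start, with a CCAAT on each side of it. Msmo1 has 3 CCAAT boxes on its own strand. Insig1 has 1 CCAAT at the far end and a CACGTG 101 to 96 bases before the start. A match describes letters only, and bound factors were not measured.

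Among the 33 genes, 6 rose and 2 fell in SKO epidermis, and the changes were small. Hmgcs1, Lss, Cyp51, Msmo1, Dhcr7 and Acly rose by 1.24-fold to 1.42-fold, Pmvk was 1.249-fold lower and Insig1 1.68-fold lower (edgeR quasi-likelihood test, Benjamini-Hochberg adjusted p below 0.05 over all 15638 genes). Of all genes tested, 23.7% were called, 11.5% higher and 12.2% lower in SKO. The members' share of calls, 24.2%, was near that background. By direction, 18.2% of the members rose and 6.06% fell. The log2 fold change was above 0 for 25 of 33 members (75.8%) and for 49.6% of all genes tested, and its median was 0.15 among members and -0.0026 over all genes. Groups did not overlap for 3 members that were higher in SKO (12.8% of all genes tested) and for 2 that were lower (13.3% of all genes). DESeq2 called 9 members higher and 2 lower, and 27.5% of all genes.

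**Figure D1:**
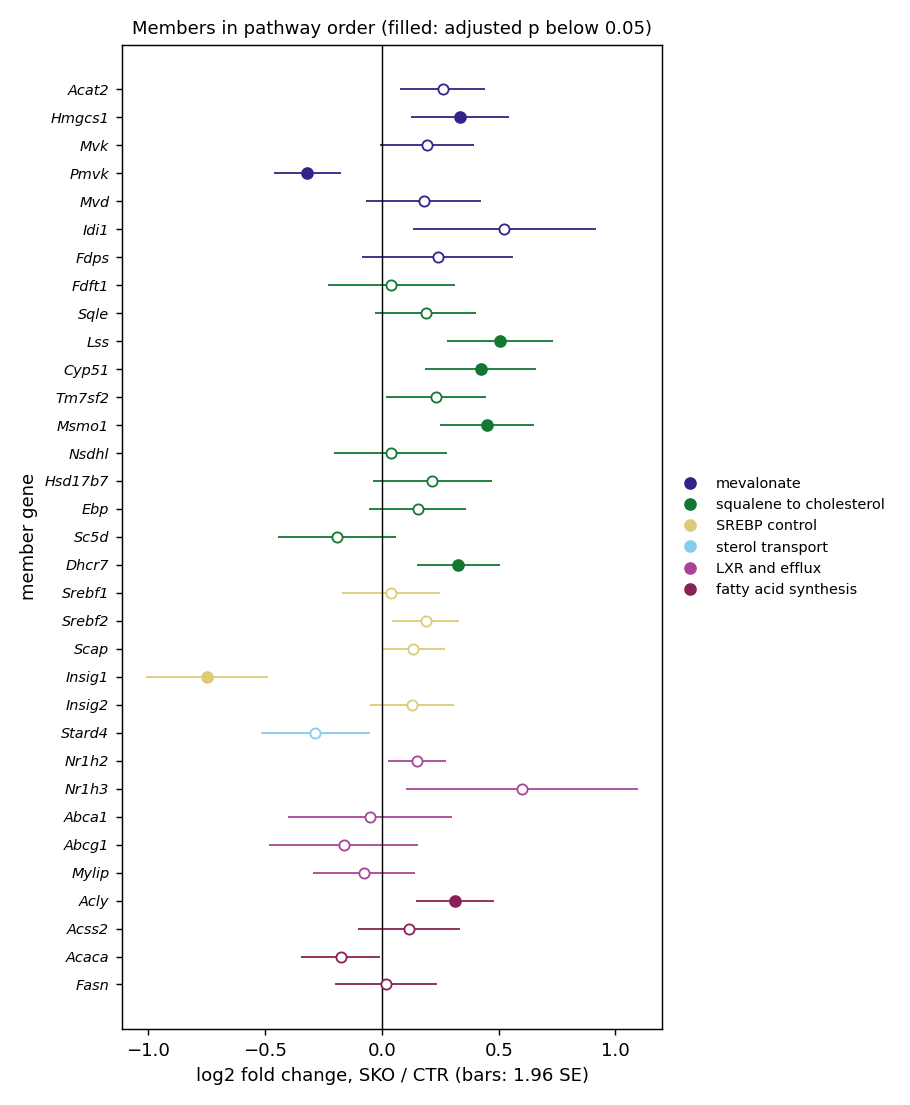
Log2 fold change of SKO over CTR for each of the 33 genes, by role. Points are edgeR estimates, bars are 1.96 SE, and filled points passed the adjusted threshold. Insig1 lies farthest from 0 of the 8 called genes, at -0.75, and the 6 called genes to the right of 0 lie between 0.31 and 0.50.

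The mevalonate pathway had 1 gene higher and 1 lower among its 7 (14.3% each, against 11.5% and 12.2% of all genes). Hmgcs1 encodes the cytosolic HMG-CoA synthase, which adds an acetyl group to acetoacetyl-CoA (ENSMUSG00000093930.1, chr13:119690379-119708260, plus strand, GRCm38). Hmgcs1 was at 1124, 1104, 1072 and 1384 CPM in CTR 1 to 4 and at 1457, 1680, 1332 and 1443 CPM in SKO 1 to 4. CTR 1 to 3 lay close together below every SKO library, but CTR 4 lay above SKO 3, so the groups overlapped. The mean went from 1171 ± 143 to 1478 ± 146 CPM (SD, n = 4 each), so that the log2 fold change was 0.34 (SE 0.11, edgeR adjusted p = 0.0450). The Hmgcs1 call ended when any of CTR 1, CTR 2, CTR 3, SKO 1, SKO 2 or SKO 4 was left out (adjusted p = 0.0661 to 0.116).

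Pmvk, for phosphomevalonate kinase, which adds the second phosphate to mevalonate, went the other way (chr3:89454541-89469013, plus strand). Its levels were 118.6, 113, 120.9 and 124.8 CPM in CTR 1 to 4 and 104.5, 86.4, 94.0 and 97.3 CPM in SKO 1 to 4. Every SKO library lay below every CTR library, and CTR libraries varied little. The log2 fold change of Pmvk was -0.32 (SE 0.07, edgeR adjusted p = 0.0120), and it was called under all 15 alternative settings.

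The other mevalonate genes were not called. Acat2, which joins acetyl-CoA units at the entry to the route, had a log2 fold change of 0.26 (adjusted p = 0.0661), with CTR at 64.2 to 82.6 and SKO at 78.4 to 93.0 CPM. Mvk, the first kinase acting on mevalonate, was at 78.8 to 102 CPM in CTR and 84.8 to 105 in SKO (log2 fold change 0.19, adjusted p = 0.196). Mvd, the decarboxylase that gives isopentenyl diphosphate, was at 69.5 to 102 CPM against 79.5 to 100 (0.18, adjusted p = 0.329). Each of these 3 genes had its highest CTR value in CTR 4. Idi1, the isomerase that makes dimethylallyl diphosphate, was at 7.94, 8.57, 7.42 and 14.3 CPM in CTR 1 to 4 and at 11.7, 14.97, 14.4 and 14.03 in SKO 1 to 4. CTR 4 alone reached the SKO levels, and the log2 fold change of 0.52 (SE 0.20) was not called (edgeR adjusted p = 0.0816). Fdps, which builds farnesyl diphosphate, had a log2 fold change of 0.24 (adjusted p = 0.317), but 1124 bases of its exons overlap those of Gm43738 on the same strand, which had 0 counts in all 8 libraries, so its count is uncertain.

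From squalene to cholesterol, 4 of 11 genes rose (36.4%, against 11.5% of all genes). Lss, for lanosterol synthase, closes the sterol rings (chr10:76531588-76557138, plus strand). Lss was at 147.4, 133, 153.2 and 184.5 CPM in CTR 1 to 4 and at 189.1, 252.5, 213.5 and 221.4 CPM in SKO 1 to 4. The groups did not overlap, although CTR 4 and SKO 1 were close. The mean rose from 154.5 ± 21.7 to 219.1 ± 26.2 CPM, 1.42-fold (log2 fold change 0.50, SE 0.12, edgeR adjusted p = 0.0126).

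Cyp51, the lanosterol 14-demethylase (chr5:4081145-4104746, minus strand), was at 191.2, 190.6, 221.1 and 265.8 CPM in CTR 1 to 4. In SKO 1 to 4 it was at 292.6, 294.7, 251.7 and 325.6 CPM. SKO 3 fell below CTR 4, and all other SKO libraries were above every CTR library. Cyp51 rose by 1.34-fold (log2 fold change 0.42, SE 0.12, edgeR adjusted p = 0.0300), a call that ended without CTR 1, CTR 2, CTR 3, SKO 2 or SKO 4 (adjusted p = 0.0624 to 0.0823). Its exons share 166 bases with Akap9 on the opposite strand, a gene at 94.5 to 168 CPM that fell (log2 fold change -0.46, adjusted p = 0.0289). Strand settings used in the counting are not given in the sources used here.

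Msmo1, the oxidase that starts removal of the 4-methyl groups (chr8:64718139-64733792, minus strand), was at 374.7, 395, 363.2 and 458.2 CPM in CTR 1 to 4. In SKO 1 to 4 it was at 495.9, 629.3, 511.3 and 537.2 CPM. The groups did not overlap, and SKO 2 was the highest of all. The mean rose from 397.8 ± 42.4 to 543.4 ± 59.7 CPM, 1.37-fold (log2 fold change 0.45, SE 0.10, edgeR adjusted p = 0.0124). Like Lss and Pmvk, Msmo1 was called under all 15 alternatives.

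Dhcr7 encodes the reductase that turns 7-dehydrocholesterol, the precursor of vitamin D in skin, into cholesterol (chr7:143823145-143848410, plus strand). It was at 120.2, 155.8, 154.7 and 155.6 CPM in CTR 1 to 4 and at 180.1, 188.5, 187.7 and 179.1 CPM in SKO 1 to 4. CTR 1 stood below the other CTR libraries, which agreed closely, and all SKO libraries were higher. Dhcr7 rose by 1.254-fold (log2 fold change 0.33, SE 0.09, edgeR adjusted p = 0.0265), and the call ended without SKO 2 (adjusted p = 0.0562) or SKO 4 (adjusted p = 0.0518).

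**Figure D2:**
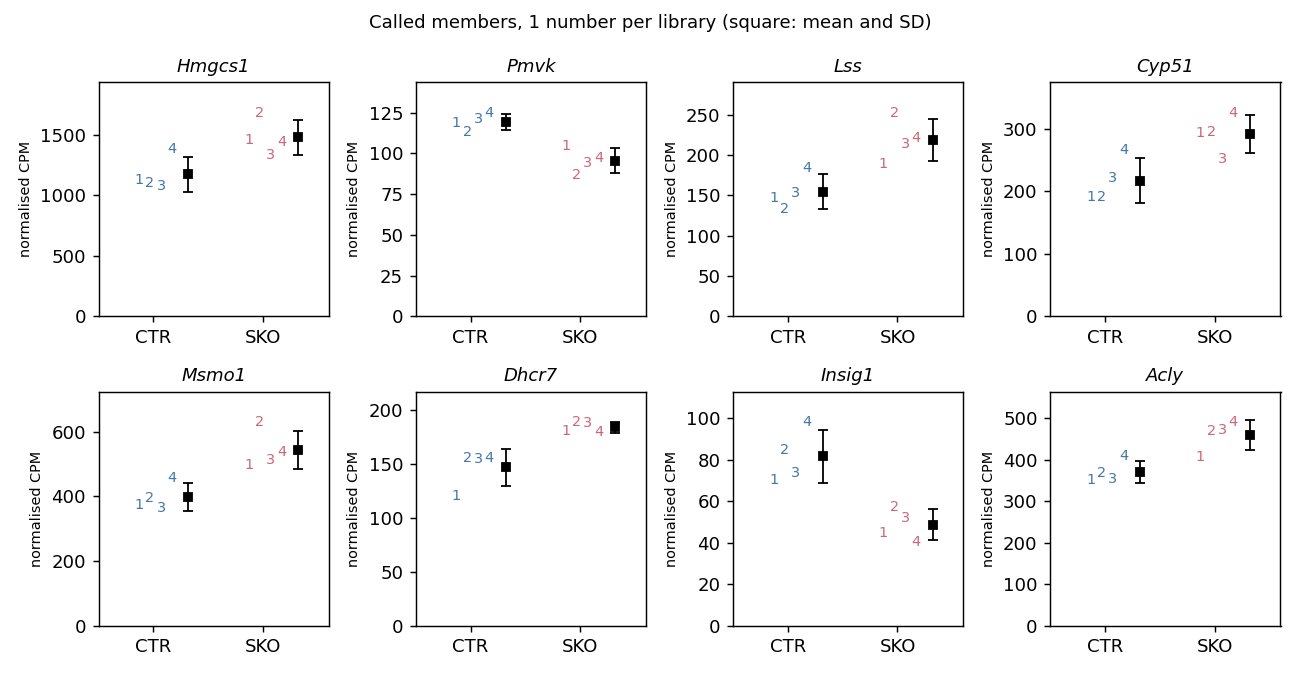
Level in each library (normalised CPM, linear axes that start at 0) of the 8 called genes, with the group mean as a square and the SD over 4 libraries as its error bar. SKO libraries lie above all CTR libraries for Lss, Msmo1 and Dhcr7 and below them for Pmvk and Insig1, and the groups overlap for Hmgcs1, Cyp51 and Acly.

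The remaining 7 genes of this stretch were not called. Fdft1, squalene synthase, was at 86.0 to 134 CPM in CTR and 90.9 to 118 in SKO (log2 fold change 0.04, adjusted p = 0.854), and its exons share 774 bases with Ctsb on the opposite strand, at 440.3 to 574.1 CPM. Sqle, the squalene epoxidase, was at 201 to 288 CPM in CTR and 256 to 271 in SKO (0.19, adjusted p = 0.242). Tm7sf2, a sterol 14-reductase, was at 10.7 to 14.04 CPM against 13.3 to 14.5 (0.23, adjusted p = 0.147), and 532 bases of its exons overlap Vps51 on the same strand. Nsdhl and Hsd17b7, which finish removal of the 4-methyl groups with Msmo1, had log2 fold changes of 0.04 (adjusted p = 0.853) and 0.22 (adjusted p = 0.252). Ebp, the isomerase that shifts the ring double bond, had a log2 fold change of 0.15 (adjusted p = 0.315). Sc5d, the desaturase just before Dhcr7, was at 47.7 to 69.2 CPM in CTR and 42.4 to 54.3 in SKO (-0.19, adjusted p = 0.301). Sc5d and Pmvk were the 2 of 18 enzyme genes of the whole route with a log2 fold change below 0.

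Over these 18 enzyme genes, 16 log2 fold changes were above 0, with a median of 0.22. Their summed level was 2984, 2939, 3075 and 3786 CPM in CTR 1 to 4 and 3791, 4283, 3647 and 3950 CPM in SKO 1 to 4. CTR 4 was above SKO 3 in this sum, which Hmgcs1 dominates, and the other CTR libraries were below all SKO libraries. CTR 4 was the highest CTR library for 15 of the 18 enzymes and for 25 of all 33 genes. SKO 2 was the highest SKO library for 10 of the 18. CTR 4 had the largest library, at 21571935 counts. Its sebaceous marker sum, 3717 CPM, was close to those of CTR 2 and CTR 3 at 3556 and 3621, with Krt79 the largest part (1585 CPM in CTR 4). Among CTR libraries, CTR 4 was highest for the sebaceous markers Awat1, Dgat2l6, Cidea, Elovl3, Pparg and Soat1. CTR 2 or CTR 3 was highest for Mc5r, Awat2, Far2, Krt79, Scd3 and Acsbg1. The part of library size or of sebaceous cells in the levels of CTR 4 was not tested.

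**Figure D3:**
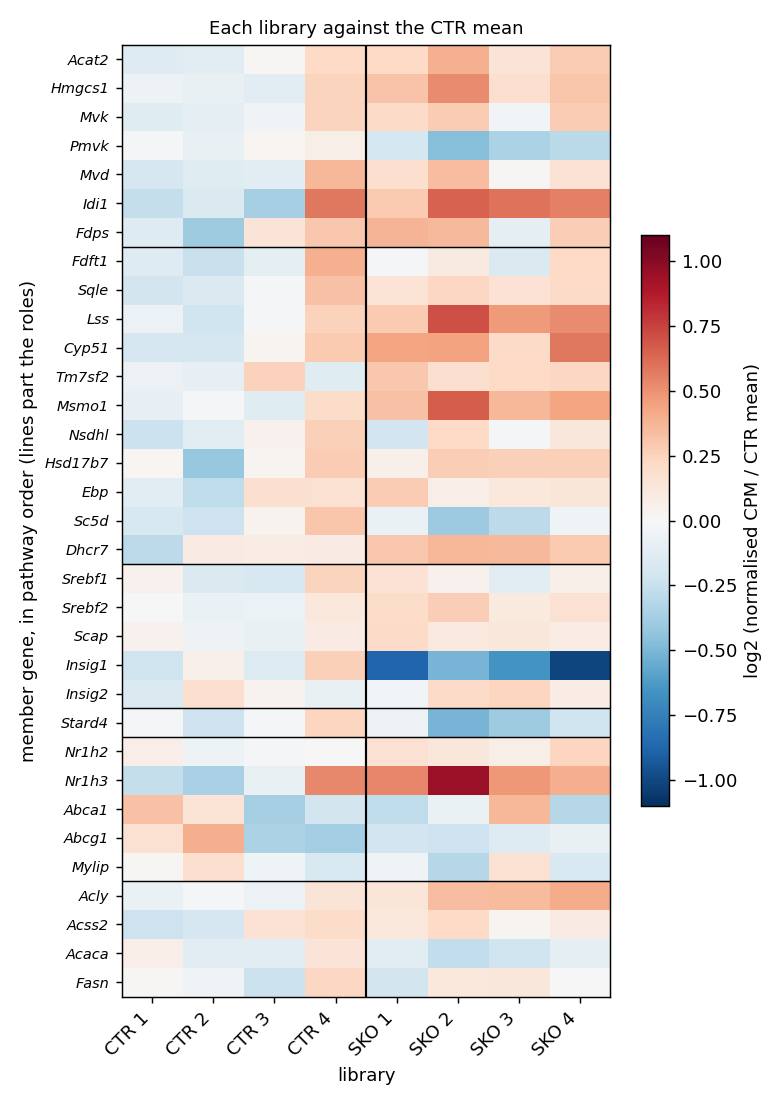
Level of each of the 33 genes (rows, by role) in each of the 8 libraries (columns), as log2 of normalised CPM over the mean of the CTR libraries (colour scale). In most enzyme rows the CTR 4 column differs from CTR 1 to 3 in the direction of the SKO columns, and the Insig1 row has all 4 SKO libraries low.

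Without CTR 4, 11 of the 33 genes were called higher and 2 lower, against 20.7% of 15847 genes called in that fit. Acat2 (adjusted p = 0.0212), Mvd (0.0303), Idi1 (0.00585, log2 fold change 0.79), Sqle (0.0222) and Nr1h3 (0.0404) joined the 8, and 9 of the 18 enzymes were then higher and 1 lower. CTR 4 was the highest CTR library for most enzymes, so leaving it out lowers their CTR means. The larger count is therefore no separate result. Leaving out any other library gave between 4 and 9 called members, with 4 without SKO 2 or SKO 4. Pmvk, Insig1, Lss and Msmo1 were called in all of these fits.

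**Figure D4:**
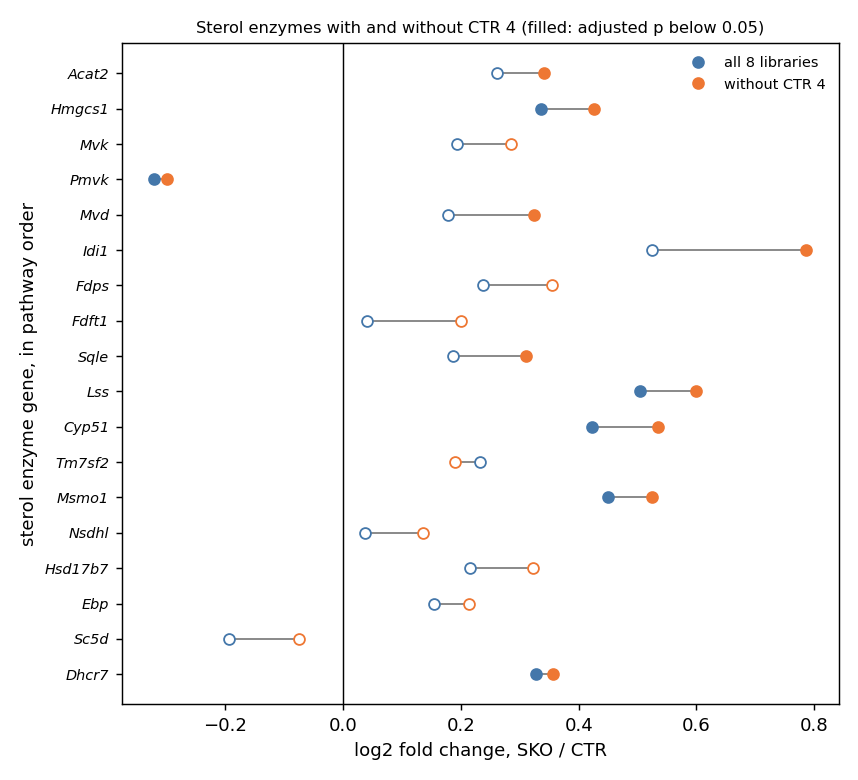
Log2 fold change of the 18 sterol enzyme genes with all 8 libraries (blue) and without CTR 4 (orange), in pathway order. Filled points passed the adjusted threshold, 6 genes with all libraries and 10 without CTR 4, and Idi1 shifts most, from 0.52 to 0.79.

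Among the regulators, Insig1 fell and the 4 others were not called (20% called, against 23.7% of all genes). Insig1 encodes one of the 2 proteins that retain SCAP and is itself an SREBP target gene (chr5:28071363-28078662, plus strand). It was at 70.2, 84.6, 73.4 and 98.1 CPM in CTR 1 to 4 and at 44.7, 57.3, 51.7 and 40.5 CPM in SKO 1 to 4. The lowest CTR library was well above the highest SKO library, SKO 2. The mean fell from 81.6 ± 12.6 to 48.6 ± 7.47 CPM, a log2 fold change of -0.75 (SE 0.13, edgeR adjusted p = 0.00407). The call held under all 15 alternatives, with adjusted p between 2.73e-06 and 0.0123. Between the group means, Insig1 thus went opposite to Hmgcs1, Lss, Cyp51, Msmo1 and Dhcr7. Within CTR, CTR 4 was the highest library for Insig1, Hmgcs1, Lss, Cyp51 and Msmo1, and CTR 2 for Dhcr7. Within SKO, SKO 2 was the highest for Insig1, Hmgcs1, Lss, Msmo1 and Dhcr7, and SKO 4 for Cyp51.

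Insig2, the second retention protein, was at 99.5 to 127 CPM in CTR and 109 to 131 in SKO, with a log2 fold change of 0.13 (1.96 SE interval -0.053 to 0.308, adjusted p = 0.337). Srebf2, which encodes SREBP2, was at 285, 269, 271 and 307 CPM in CTR 1 to 4 and 326, 340.5, 304 and 318 in SKO 1 to 4. SKO 3 was just below CTR 4, and the log2 fold change of 0.19 (SE 0.07) was not called (edgeR adjusted p = 0.0895, DESeq2 0.0355). Srebf1, for SREBP1, had a log2 fold change of 0.04 (adjusted p = 0.816) and Scap one of 0.13 (adjusted p = 0.181). These are RNA levels, and cleavage of the SREBP precursors was not measured.

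Stard4, a soluble carrier of cholesterol between membranes and an SREBP2 target, was at 240, 207, 239 and 285 CPM in CTR 1 to 4. In SKO 1 to 4 it was at 232, 170.5, 185 and 209 CPM. SKO 1 lay within the CTR range and SKO 4 at its lower end, and the log2 fold change of -0.28 (SE 0.12) was not called (edgeR adjusted p = 0.109).

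In the LXR branch, 0 of 5 genes were called by edgeR and 0 by DESeq2, against 23.7% and 27.5% of all genes. An unadjusted edgeR p below 0.05 was found for 2 of them, against 5877 of the 15638 genes tested. Nr1h2, for LXR beta, was at 76.3 to 83.1 CPM in CTR and 82.9 to 93.0 in SKO (log2 fold change 0.15, adjusted p = 0.113). Nr1h3, for LXR alpha, had the least RNA of the 33, at 0.818 to 1.51 CPM in CTR and 1.38 to 2.02 in SKO (0.60, SE 0.25, adjusted p = 0.112), from 16 to 40 counts a library. Abca1, an LXR target that exports cholesterol to apolipoproteins, was at 155, 138, 96.6 and 108 CPM in CTR 1 to 4 and 103, 118, 160 and 100 in SKO 1 to 4, fully overlapping (-0.05, adjusted p = 0.860). Abcg1, a further sterol exporter under LXR, was at 18.7 to 31.9 CPM in CTR and 20.7 to 22.9 in SKO (-0.16, adjusted p = 0.490). Mylip, a ubiquitin ligase for lipoprotein receptors, was at 54.7 to 69.6 and 49.4 to 69.0 CPM (-0.08, adjusted p = 0.641).

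Of the 4 fatty acid synthesis genes, Acly rose (25%, against 11.5% of all genes called higher). Acly encodes ATP citrate lyase, which supplies cytosolic acetyl-CoA to both routes (chr11:100476353-100528000, minus strand). It was at 350.5, 367.2, 352.6 and 407.7 CPM in CTR 1 to 4 and at 406.1, 468.8, 470.6 and 490.1 CPM in SKO 1 to 4. SKO 1 and CTR 4 were nearly equal and the remaining libraries were apart. The rise was 1.24-fold (log2 fold change 0.31, SE 0.09, edgeR adjusted p = 0.0250) and was not called without CTR 1, CTR 2, CTR 3, SKO 2 or SKO 4 (adjusted p = 0.0587 to 0.0717).

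Fasn, the synthase that assembles palmitate, was at 590, 569, 498 and 684 CPM in CTR 1 to 4 and 508, 636, 636 and 589 in SKO 1 to 4, with wide overlap (log2 fold change 0.02, adjusted p = 0.927). Acaca, the carboxylase that makes malonyl-CoA, had a log2 fold change of -0.18 (adjusted p = 0.162). Acss2, which makes acetyl-CoA from acetate, had one of 0.12 (adjusted p = 0.480).

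Per kilobase of exons, Hmgcs1 had the highest level of the 33 genes, 254.9 ± 31.2 CPM per kb in CTR (SD, n = 4). It was followed by Acly at 70.0 ± 5.02, Pmvk at 69.7 ± 2.88 and Msmo1 at 64.8 ± 6.90 CPM per kb, which did not differ beyond their spread. At the other end, Acss2 (2.39 ± 0.370), Acaca (2.01 ± 0.185) and Nr1h3 (0.416 ± 0.125 CPM per kb) were lowest. With the longest transcript as the length, Hmgcs1 stayed first and Nr1h3 last, while Msmo1, Pmvk and Acly followed in that order, and Acss2 (6.72 CPM per kb) moved up to rank 27 while Idi1 (3.15) joined Acaca and Nr1h3 as the lowest 3.

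Promoters of 28 of the 33 genes were in the RefSeq table. No entry was found for Fdps, Fdft1, Sqle, Stard4 and Abcg1. In the 250 bases before the start, TCACNCCAC, the sterol regulatory element core, occurred in 1 of 28 genes, Hmgcs1 (3.57%, against 1.22% of all genes in the table, both strands searched). CACGTG, an E-box, occurred in 6 (21.4% against 6.86%). CCAAT, the NF-Y box, occurred in 21 (75% against 37.5%), and GGGCGG, the GC box, in 23 (82.1% against 35.4%). The LXR element, a direct repeat of AGGTCA spaced by 4 bases, was in 0 of 28 and in 0.0148% of all genes. The shares of all genes were not restricted to genes with enough counts to be tested here, while all 28 members had enough. No searched motif contains another, and longer or degenerate forms were not searched.

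Genes around the core route were looked at in 5 further lists. Of 9 other sterol and isoprenoid genes, 5 rose (median log2 fold change 0.36), namely Tmem97, Cyb5r3, Por, Pdss1 and Nus1, against 11.5% of all genes. The count was 3 without CTR 1, CTR 2 or CTR 3. Tmem97, a sterol-responsive membrane protein of the endoplasmic reticulum, was at 45.1, 41.6, 38.7 and 51.5 CPM in CTR 1 to 4 and 80.7, 77.7, 68.1 and 74.2 in SKO 1 to 4, with no overlap (1.697-fold, log2 fold change 0.76, SE 0.10, edgeR adjusted p = 0.00102). Por and Cyb5r3 pass electrons to the oxidases of the sterol route, such as CYP51 for Por and MSMO1 for Cyb5r3, and both serve many other enzymes. Cyb5r3 rose from 163 ± 8.80 to 249 ± 9.88 CPM (1.52-fold, adjusted p = 0.000597) and Por from 105 ± 11.3 to 149 ± 10.2 CPM (1.42-fold, adjusted p = 0.00415), again without overlap. Pdss1, for the side chain of ubiquinone, rose by 1.30-fold (adjusted p = 0.0218), a call that ended without CTR 1, CTR 2 or CTR 3 (adjusted p up to 0.0604). Nus1, a subunit of the enzyme that makes dolichol precursors, rose by 1.29-fold (adjusted p = 0.0353), a call that ended without CTR 1, CTR 2, CTR 3, SKO 1, SKO 2 or SKO 4 (adjusted p up to 0.0989).

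Of 9 genes for SREBP cleavage and the degradation of sterol proteins, 1 rose and 1 fell (median -0.02). The called share, 22.2%, was near the 23.7% of all genes. The rise was not called without CTR 3, SKO 2 or SKO 4. Mbtps1, the site-1 protease that makes the first cut in SREBPs and also in other membrane-bound factors, was at 146.3, 146.5, 143.2 and 136.6 CPM in CTR 1 to 4 and 103.2, 120.7, 120.7 and 98.6 in SKO 1 to 4. The groups did not overlap, and it was 1.29-fold lower (log2 fold change -0.37, SE 0.08, edgeR adjusted p = 0.0106).

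Of 15 tested genes for sterol uptake, storage and conversion, 3 rose and 1 fell (median 0.09). The called share, 26.7%, was near the 23.7% of all genes, and Ch25h had too few counts to be tested. Cyp7b1, an oxysterol 7-hydroxylase, was at 0.871, 0.722, 0.619 and 0.282 CPM in CTR 1 to 4 and at 6.66, 4.70, 3.96 and 5.40 CPM in SKO 1 to 4. It was low in every CTR library and had the largest fold of these lists among called genes, 8.27-fold (log2 fold change 3.05, SE 0.30, edgeR adjusted p = 0.00031). Scarb1, a receptor for high-density lipoprotein, fell from 18.1 ± 1.66 to 12.1 ± 2.34 CPM (1.49-fold lower, adjusted p = 0.0173). Npc2, which moves cholesterol out of lysosomes, rose by 1.26-fold (adjusted p = 0.0231) and Gramd1c, of a family of sterol transfer proteins, by 1.23-fold (adjusted p = 0.0491). The Npc2 call ended without CTR 2, CTR 3, SKO 1 or SKO 4 (adjusted p up to 0.0634). Gramd1c was called in 8 of 15 alternatives (adjusted p up to 0.120), and its call ended with no count filter or without any 1 CTR library, SKO 1 or SKO 3.

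For fatty acid supply, 1 of 10 tested genes rose and 1 fell (median -0.04). The called share, 20%, was near the 23.7% of all genes. Mid1ip1, an activator of acetyl-CoA carboxylase, rose from 168 ± 27.3 to 226 ± 23.8 CPM (adjusted p = 0.0281), and Acsl3, a fatty acyl-CoA synthetase, was 1.24-fold lower (adjusted p = 0.0339). Each was called in 10 of 15 alternatives, with adjusted p up to 0.0790 for Mid1ip1 and 0.0933 for Acsl3. Neither was called without CTR 2, CTR 3, SKO 2 or SKO 4, nor was Mid1ip1 without CTR 1 or Acsl3 without CTR 4. Thrsp had too few counts to be tested.

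Elongation and desaturation had 5 genes higher and 1 lower of 17 tested (median 0.13). These were 29.4% and 5.88%, against 11.5% and 12.2% of all genes. Elovl2 and Hacd4 had too few counts to be tested. Scd1, a stearoyl-CoA desaturase that makes monounsaturated fatty acids, was at 3242, 3654, 2890 and 4045 CPM in CTR 1 to 4 and 4878, 6948, 5459 and 5987 in SKO 1 to 4. All SKO libraries were above all CTR libraries (1.68-fold, log2 fold change 0.75, SE 0.14, edgeR adjusted p = 0.00443). Its close paralog Scd3 rose by 3.39-fold, from 139 ± 68.0 to 472 ± 95.1 CPM (adjusted p = 0.00281). Reads that match both paralogs could be split between them, so both values are uncertain. Elovl6, which extends palmitate, was at 330 to 473 CPM in CTR but ran from 383 to 892 in SKO (log2 fold change 0.82, SE 0.26, adjusted p = 0.0465), a call kept in 9 of 15 alternatives and lost in the robust fit and without CTR 1, CTR 3, CTR 4, SKO 2 or SKO 3 (adjusted p up to 0.116). Tecr, the reductase that ends each elongation cycle, was at 160.4, 149.8, 173.8 and 198.6 CPM in CTR 1 to 4 and 101.1, 98.2, 94.9 and 85.9 in SKO 1 to 4. Tecr was lower in every SKO library, 1.80-fold (log2 fold change -0.85, SE 0.10, edgeR adjusted p = 0.000599). Elovl3 and Hacd3 also rose, Elovl3 in 10 of 15 alternatives. The count of 5 was 3 without CTR 1, CTR 3 or SKO 2.

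Sebaceous glands are rich in Scd3 and Elovl3, and both stand among the 13 sebaceous markers as well as in the elongation and desaturation list. Soat1 stands among these markers and also in the list for sterol uptake, storage and conversion. Of 12 sebaceous markers tested, 4 rose (Krt79, Pparg, Scd3 and Elovl3), 33.3% against 11.5% of all genes. The log2 fold change was above 0 for 9 of the 12 and below 0 for 3, namely Mc5r, Dgat2l6 and Acsbg1. Krt79 rose from 1486 ± 215 to 2222 ± 272 CPM (adjusted p = 0.0100). The gland genes Awat1, at 169 to 205 CPM in CTR and 193 to 266 in SKO (adjusted p = 0.305), and Mc5r, at 9.47 to 21.7 and 7.23 to 19.0 CPM (adjusted p = 0.799), were not called. Sums of sebaceous markers and of the sterol enzymes were both higher in SKO than in most or all CTR libraries, and the part of sebaceous cells in the enzyme levels was not tested.

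**Figure D5:**
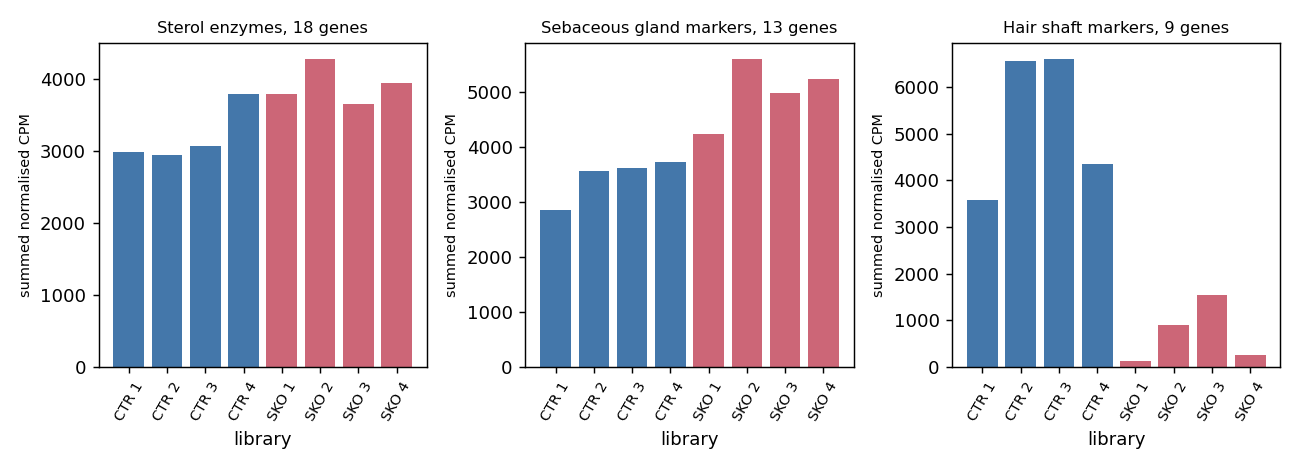
Summed normalised CPM for the sterol enzymes, the sebaceous markers and the hair shaft markers, with each library as a bar. Sterol enzyme sums overlap between the groups through CTR 4, sebaceous sums are higher in all 4 SKO libraries, and hair shaft sums are lower in all 4.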

How the data were processed

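RNA of dispase-separated tail epidermis was sequenced as stranded poly-A libraries of single reads, per the labels' protocols. The authors deposited whole-number read counts per Ensembl gene with no normalization. Per the submitters' processing notes the build was GRCm38 and the tools included STAR 2.4.1d and featureCounts 1.4.6. The annotation release, strand setting and treatment of multiply mapped reads are not given in the sources used here. Symbols, coordinates and exon lengths came from GENCODE M21, where 46488 of 46983 identifiers were found.

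All 8 libraries were fitted in edgeR 4.0.16 (R 4.3.3) with TMM, filterByExpr and the two-sided quasi-likelihood test, group as the only term, and Benjamini-Hochberg adjustment over 15638 genes at 0.05. SE is the absolute log2 fold change over the square root of F. The code was also run on counts simulated with independent libraries and the fitted dispersions, which cannot check library effects such as those of CTR 4. Alternatives were RLE, upper-quartile or no scaling factors, DESeq2 1.42.0, no filter beyond 1 count in all, at least 1 CPM in 4 libraries, a robust fit and leaving out each library. Libraries of 1 group differed by more than sampling noise in every pair (chi-square per degree of freedom 14.2 to 60.5). Mice are separate animals, numbered in accession order. Floors of 3 counts cover counting error only, since reads carried no molecular identifiers.

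All 33 members are named. In each further pathway list, the called genes with the largest changes are named (at most 4, mean 1 CPM or more), with abundant genes added to reach 2, and markers of other cell types are summed. The members, lists and rules were chosen with earlier results of these data known. Nus1, Elovl3 and Hacd3 were added after their values were seen, as were the markers named. Some genes of the further lists are counted there but are not reported here by name.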

Additional observations from a re-analysis of the deposited data

Results flagged for a closer look

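Within each group of 4 libraries, the highest and lowest values of the 33 genes were compared with the rest, and a library was singled out where its gap to the nearest other library took up more of the group's range than the 95% critical value of Dixon's test for 4 values. Of 66 groups, 6 had such a library, and chance flags about 1 in 20 groups. CTR 4 was far above the other CTR libraries for Hmgcs1 (1384 CPM), Mvd (102 CPM) and Idi1 (14.3 CPM), enzymes of the mevalonate pathway. CTR 3 was far above the others for Tm7sf2 (14.04 CPM). CTR 1 was far below the others for Dhcr7 (120.2 CPM). SKO 1 was far below the other SKO libraries for Hsd17b7 (228 CPM).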

How the results depend on the processing

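Under the 15 alternatives, none of the 8 called genes changed direction. Insig1, Pmvk, Lss and Msmo1 were called in all 15, while the calls of Hmgcs1, Cyp51, Dhcr7 and Acly ended in at least 1 fit that left out a library. The count of called members, 8 of 33, was 9 with upper-quartile factors, 11 with DESeq2 and 8 in the other fits on all libraries, and lay between 4 and 13 when 1 library was left out. The members' median log2 fold change lay between 0.12 and 0.20. Calls over all genes, 3700, lay between 2589 and 4370 with 1 library left out and were 4306 with DESeq2. Uncalled genes near 0 changed sign: Fdft1, Nsdhl, Abca1 and Fasn in 3 alternatives each and Srebf1 in 2. The scalings moved the median of all genes by at most 0.0228. No paired analysis was possible because the labels give no replicate number or litter that pairs CTR with SKO mice. Mouse identifiers of the groups lie next to each other, but no label says that neighbours belong together, and a fit with such couples was not run. A gene that was not called is not shown to be unchanged. Nr1h3, with 16 to 40 counts a library, is the member most limited by depth.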
